A study of Mus musculus with 86 samples.

Results

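The SOX2 binding sites called in asynchronous and in mitotic mouse embryonic stem cells were compared from the 4 SOX2 peak lists, which held 156154 of the 327957 peaks in the 8 lists used. The members are all peaks of these 4 lists, chosen by antibody and growth condition alone, and CTCF lists from the same design served for comparison. The cells, of strain 129S5/SvEvBrd, were grown in serum with the cytokine LIF on gelatin. Asynchronous cultures were left untreated, and mitotic cells were collected by shake-off after 6 h in 100 ng/ml of nocodazole, which stops cells in mitosis by blocking microtubules. Each group had 2 SOX2 libraries made with the antibody AF2018, and each library has its own list. The labels give no measure of how many of the collected cells were in mitosis. Whether the 2 libraries of a group came from separate cultures is not stated, and differences between them may be purely technical.

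SOX2 is a transcription factor with an HMG box, a domain that bends DNA from the minor groove and reads short words such as ACAAAG and ACAATG. In embryonic stem cells it works with OCT4, the product of Pou5f1, which reads the octamer ATGCAAAT, and the pair holds the pluripotency network active from enhancers and promoters. During mitosis transcription largely stops and chromosomes condense, and many factors are seen less on chromatin. Whether SOX2 can still be detected at its sites then is the question the peak lists address.

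Promoter sequences show what the strongest mitotic sites at genes look like. Of the 15 strongest regions called in both mitotic lists, 3 had a mitotic summit inside a RefSeq promoter window (GRCm38.p6, the assembly of mm10), and these are shown first. Lin28a and Gadd45g were added after their values were seen, as a pluripotency gene and as a site whose summit moved. Each run gives the 250 bases before the start of the gene, read 5′ to 3′ on its own strand, and capitals mark every match on either strand to the SOX words ACAAAG and ACAATG and to the octamer. The positions are chr5:116591818-116592067 on the minus strand for Srrm4, chr2:25180508-25180757 on the plus strand for Nrarp and chr11:77893873-77894122 on the minus strand for Pipox. Lin28a lies at chr4:134018817-134019066 on the minus strand and Gadd45g at chr13:51846425-51846674 on the plus strand.
Srrm4: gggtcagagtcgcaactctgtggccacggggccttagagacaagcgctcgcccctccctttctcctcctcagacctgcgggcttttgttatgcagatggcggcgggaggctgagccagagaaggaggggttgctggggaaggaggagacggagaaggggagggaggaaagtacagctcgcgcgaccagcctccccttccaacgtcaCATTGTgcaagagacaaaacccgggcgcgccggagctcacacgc
Nrarp: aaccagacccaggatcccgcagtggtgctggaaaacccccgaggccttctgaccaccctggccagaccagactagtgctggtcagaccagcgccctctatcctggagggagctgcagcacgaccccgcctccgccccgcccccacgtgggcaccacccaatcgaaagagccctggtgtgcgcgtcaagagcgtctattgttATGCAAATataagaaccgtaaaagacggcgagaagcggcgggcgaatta
Pipox: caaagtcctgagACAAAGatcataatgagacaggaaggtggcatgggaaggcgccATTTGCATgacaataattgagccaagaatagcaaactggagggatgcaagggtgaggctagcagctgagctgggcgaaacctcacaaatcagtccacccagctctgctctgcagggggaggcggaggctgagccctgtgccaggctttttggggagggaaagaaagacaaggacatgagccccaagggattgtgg
Lin28a: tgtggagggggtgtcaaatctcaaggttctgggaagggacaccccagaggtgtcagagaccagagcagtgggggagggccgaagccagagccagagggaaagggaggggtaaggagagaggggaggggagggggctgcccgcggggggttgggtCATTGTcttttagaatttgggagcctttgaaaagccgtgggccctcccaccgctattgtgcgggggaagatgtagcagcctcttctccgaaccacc
Gadd45g: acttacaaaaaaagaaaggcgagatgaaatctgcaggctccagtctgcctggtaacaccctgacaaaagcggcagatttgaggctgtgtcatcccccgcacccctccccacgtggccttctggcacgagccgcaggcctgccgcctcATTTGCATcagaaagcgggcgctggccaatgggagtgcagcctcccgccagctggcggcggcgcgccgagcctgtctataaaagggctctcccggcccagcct

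In the promoter of Srrm4, which encodes a neural splicing regulator, the mitotic summits lay at -170 and -139 bp from the gene start in replicates 1 and 2, and the asynchronous summits at -165 and -155 bp, where negative is upstream. The asynchronous summits thus lay between the mitotic ones, and the only exact SOX word began at -44 bp. At Nrarp, a feedback inhibitor of Notch signalling, the octamer began at -49 bp and the mitotic summits lay at 29 and -19 bp. At Pipox, encoding a peroxisomal oxidase, the octamer began at -195 bp and the mitotic summits lay at -208 and -191 bp. The mitotic summits flanked the octamer's first base in Pipox and lay farther from the marked word in Srrm4. Only exact words were marked, and near matches, such as atgcagat in Srrm4 beside the octamer ATGCAAAT, were not searched. At Lin28a, whose product binds RNA and keeps the let-7 microRNAs from being processed, the SOX word began at -96 bp and the mitotic summits were at -10 and -71 bp. At Gadd45g, a stress response gene, the octamer began at -103 bp, with mitotic summits at -91 and -158 bp, whereas the asynchronous summits were at -690 and -659 bp.

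SOX words were frequent in promoter windows that held mitotic summits, and their interval overlapped that of strong asynchronous promoters not called in mitosis. Windows of 300 bases (250 before to 50 after the start) were searched on both strands. Of all 32851 windows, 28.6% held ACAAAG or ACAATG, and of the 2389 windows with an asynchronous summit of both libraries 41.5% (95% Wilson interval 39.6 to 43.5) did. The share was 57.1% (51.8 to 62.2) of 347 windows with a summit of mitotic replicate 1, 67.2% (54.4 to 77.9) of 58 with one of replicate 2, and 75% (60.6 to 85.4) of 44 with both. Among 96 windows with asynchronous summits in regions above the 90th strength percentile but called in neither mitotic list it was 62.5% (52.5 to 71.5). This overlaps the interval for both mitotic summits, which does not show equal shares, and the difference was not tested. Strength here is the mean of a region's 2 percentiles of deposited fold, 1 from each asynchronous list.

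The octamer was rarer than the SOX words and was found in 8 of the 44 windows with both mitotic summits, or 18.2% (9.51 to 32). It was in 1.74% of all windows, in 2.68% of those with asynchronous summits and in 4.17% (1.63 to 10.2) of the strong ones called in neither list. The last interval overlaps that of the 44, which does not show equal shares, and the difference was not tested. By replicate the octamer was in 3.46% (1.99 to 5.95) of the windows with a summit of mitotic replicate 1, near the asynchronous shares. For replicate 2 the share was 13.8% (7.16 to 24.9). The base composition differed as well, since G and C made up 53.8% of all windows, 53.2% of the strong ones not called in mitosis and 66% of those with both mitotic summits. The composite SOX-OCT word, made of the reverse complement of ACAATG, a free base and the first bases of the octamer, was in 2 of all windows. Both were among the 96 strong windows called in neither mitotic list, and 0 of the 44 held it. A form without the leading base was searched after the sequences had been seen. It was in 8 of all windows, and 2 of the 44 held it, those of Nrarp and Pipox (4.55%, 1.26 to 15.1). It was also in 3 of the 96 strong windows called in neither mitotic list (3.13%, 1.07 to 8.79), at Nanog and the gene model Gm34201. A match describes the letters and not a bound site.

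Few regions were called in mitosis. The asynchronous lists held 90266 and 63504 peaks and the mitotic lists 1976 and 408, and the read background per 100 bp of fragment length, a measure of depth, was 2.48 and 1.61 against 2.62 and 1.64. Peaks of both asynchronous lists merged into 51672 regions, of which replicate 1 called 3.37%, replicate 2 called 0.755%, both called 0.675% and at least 1 called 3.45%. Whole reads at the summit were recovered for 100% of the peaks in each list. The weakest peak had 15 and 11 reads at its summit in the asynchronous lists and 18 and 15 in the mitotic ones, and the median peak had 31 and 24 against 28 and 23.

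The 15 strongest regions called in both mitotic lists held far fewer reads at their summits in mitotic than in asynchronous cells (the plot of summit reads). Klf13, a Krüppel-like factor gene, had 353 and 263 asynchronous reads and 143 and 67 mitotic reads at a site 17.1 kb away (chr7:63956044-63958391). Asic2, an acid-sensing channel gene, had 313 and 196 against 95 and 51 at a site inside the gene (chr11:81612314-81614339). Abca4, a retinal transporter gene, had 412 and 320 against 57 and 50 (chr3:122144682-122146362, inside the gene). At none of the 15 did the groups overlap, and this held for 330 of the 349 regions called in both lists (94.6%). Each count belongs to the summit of its own library, which can lie elsewhere in the region, as at Midn below.

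The top-ranked of the 15 had Ermard, at 117 kb, as its nearest gene (chr17:15206787-15208901). It had 249 and 176 asynchronous reads and 123 and 86 mitotic reads, the highest mitotic count of replicate 2 among the 15. Nrarp had 225 and 175 against 150 and 83. Cdh4, encoding R-cadherin, had 190 and 102 against 98 and 57, where the higher mitotic library nearly reached the lower asynchronous one. The Spen site, 6.44 kb from the gene of a transcriptional repressor, had 204 and 154 against 95 and 60. The Tcf7 site, 2.68 kb from the gene of an HMG-box effector of WNT signalling, had 174 and 110 against 78 and 49. The others were Srrm4, Pipox, Midn, Il17rd, Rif1 and sites near or in Sertad4 and Lrrc74a, at 40 to 71 reads in mitotic replicate 2. Of the 15 regions, 13 overlapped a region called for CTCF in both asynchronous CTCF libraries, beside 55.3% of the 349 regions called in both mitotic lists and 19.2% of those called in neither. The regions called in both were also wider, with a median of 1710 bp against 643 bp, and the part of width was not tested. Of the 15, 5 had an asynchronous summit within 1 kb of a gene start.

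**Figure D1:**
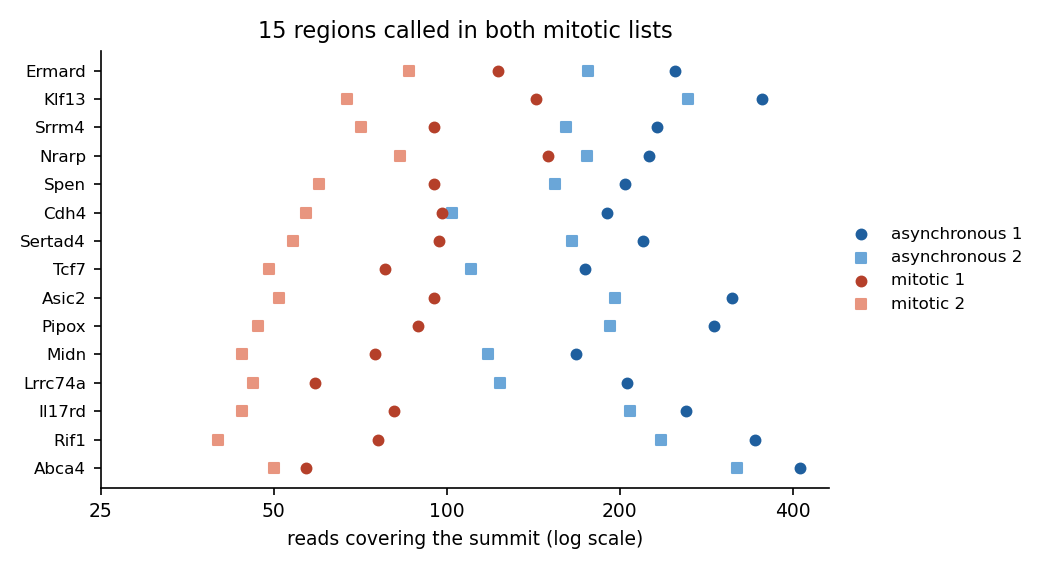
Reads covering the summit (log scale) at the 15 regions called in both mitotic SOX2 lists with the highest mean rank, 1 point per library. Both mitotic points lie left of both asynchronous points in every row, with the smallest gap at Cdh4 (98 against 102 reads).

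Mitotic peaks were narrower. Median widths were 435 and 408 bp in the asynchronous lists and 325 and 256.5 bp in the mitotic ones, or 421.5 ± 19.1 (SD, n = 2) against 290.75 ± 48.4 bp (SD, n = 2), and the groups did not overlap. Peaks over 1 kb made up 11.7% and 7.67% of the asynchronous lists and 1.21% and 0.245% of the mitotic ones. For CTCF the medians were 461 and 477 bp against 430 and 383 bp. The exact permutation test, two-sided, gave p = 0.333 for the SOX2 medians, the smallest that 2 against 2 allows, and the same limit holds for every comparison of libraries here.

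The sites called in mitosis came from the wide asynchronous regions, so the narrowing was larger where the same sites were compared. A mitotic peak of replicate 1 was 0.251 times as wide as the asynchronous peak of replicate 1 that it overlapped (median), and it was the narrower of the pair in 99.1% of 1942 cases. For replicate 2 the ratio was 0.231 in 404 cases. In the 349 regions called in both mitotic lists, the median width of the strongest peak was 1619 and 1225 bp in the asynchronous lists and 492 and 261 bp in the mitotic ones, and its median reads 168 and 107 against 39 and 24. Asynchronous reads and peak width move together in these lists, and their part in the narrowing was not tested. Of regions over 2500 bp wide 10.1% were called in both mitotic lists, against 0 of 7208 regions up to 400 bp.

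Of the 10 widest reproducible regions, 1 was called in both mitotic lists, 6 in replicate 1 alone and 3 in neither, beside 0.675% called in both and 3.45% in at least 1 over all regions. The region at Rhof, a small GTPase gene, spanned 7693 bp (chr5:123134061-123141753) and had 30 reads in mitotic replicate 1. Regions at Tgif1, a homeobox repressor gene, and at Cdh1, the E-cadherin gene, were 5998 and 5714 bp wide, and a region 48.2 kb from Klf4, a pluripotency factor gene, was 5415 bp wide with 23 reads in mitotic replicate 1. The regions at Nmnat2 and near Gabrp and Tet1, a methylcytosine oxidase gene, were called in neither list. The 1 called in both (chr17:39843022-39848808) overlaps the ribosomal RNA pseudogene Rn18s-rs5 and had a local background of 132.6 to 244.4 reads, where the deposited folds were 2.47, 3.17, 1.51 and 1.58.

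**Figure D2:**
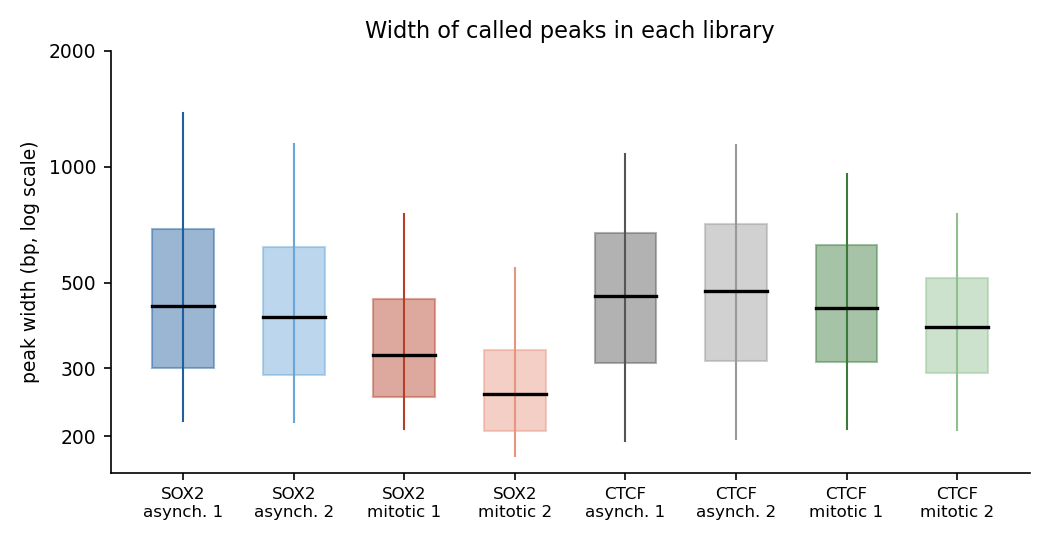
Width of called peaks in each library (bp, log scale): the line in each box is the median, the box spans the middle 50% of peaks, and the vertical line runs from the narrowest peak to the 95th percentile. The mitotic SOX2 medians (325 and 256.5 bp) lie below the asynchronous ones (435 and 408 bp), with a smaller step for CTCF.

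In the regions called in both mitotic lists, the median distance from mitotic to asynchronous summits was no larger than that between mitotic replicates. Over the 349 regions called in both mitotic lists, the median distance from a mitotic to an asynchronous summit was 40 to 47 bp over the 4 pairings of libraries. Between the mitotic replicates it was 47 bp and between the asynchronous replicates 22 bp. Over all overlapping mitotic peaks it was 73 and 46.5 bp for replicates 1 and 2 (1942 and 404 peaks) against the asynchronous library of the same number. For CTCF the same comparison gave 24 and 25 bp. Overlapping peaks of the mitotic replicates were 46 bp apart (359 peaks) and those of the asynchronous replicates 44 bp. The 359 had a median of 39 reads in replicate 1 and the 1942 had 28. Peaks of replicate 1 without a partner in replicate 2 have no replicate distance, so 73 and 46 bp cover unlike sets. Each peak has 1 summit, so a broad asynchronous peak with several maxima is represented by its highest.

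At some sites the summit lay elsewhere in the region. In 262 of 1942 matched peaks of replicate 1 (13.5%) and 27 of 404 of replicate 2 (6.68%) the summits were over 500 bp apart. Between replicates the share was 2.65% of 53092 asynchronous and 0.279% of 359 mitotic matched peaks. Those replicate peaks were narrow, with median widths of 590 and 456 bp (asynchronous) and 494 and 263 bp (mitotic). The asynchronous peaks matched to mitotic ones had medians of 1430 and 1196.5 bp. Narrow peaks leave little room for 500 bp, so these shares are not a like comparison. In the 349 regions these shares were 6.02% to 6.88% between conditions, 3.15% between asynchronous and 2.29% between mitotic replicates. The asynchronous peaks in those 262 cases had a median width of 2491.5 bp, against 1325 bp in the other cases. In 15 of the 349 regions both mitotic summits were over 500 bp from the asynchronous summit of the same number.

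The 5 strongest of these 15 had mitotic summits 17 to 67 bp apart. At Midn, encoding midnolin, both asynchronous summits lay 1591 and 1606 bp from the mitotic ones, while the mitotic summits were 17 bp apart and the asynchronous ones 2 bp apart. At Etv4, an ETS factor gene that responds to FGF signalling, the distances were 2363 and 2431 bp, with 39 bp between the mitotic summits. Mitotic replicate 1 had 4 peaks in the Midn region and 2 in the Etv4 region. Only the peak with the highest −log10 p was used, and the places of the others were not examined. At Serpini1, encoding neuroserpin, they were 973 and 1044 bp. At Llgl1, a cell polarity gene, the mitotic summits were 16 and 3 bp from a gene start and the asynchronous ones 705 and 696 bp from it. Gadd45g showed the same order, as its promoter above shows. Over all 15 the mitotic summits had no common side: in 7 both were nearer to a gene start than their asynchronous partners, and both mitotic summits were within 1 kb of a start in 5 regions, both asynchronous ones in 6.

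Mitotic SOX2 peaks lay at gene starts far more often than asynchronous ones. Summits within 1 kb of a start of a protein-coding gene made up 13.4% and 13.3% of the asynchronous lists and 46.5% and 31.9% of the mitotic lists, or 13.4% ± 0.0334 (SD, n = 2) against 39.2% ± 10.3 (SD, n = 2), and the groups did not overlap. The exact permutation p was 0.333. With each list cut to its strongest 408 peaks the shares were 3.83% and 4.33% against 44.9% and 31.9%, so the difference was larger there. The median distance to a start was 28.4 and 29.6 kb in asynchronous cells and 1.71 and 11.8 kb in mitotic ones. In the CTCF lists the share went slightly the other way, at 9.32% and 9.80% against 9.22% and 8.02%.

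Among strong regions, those at gene starts were called more often than those elsewhere. Both mitotic lists called 2.24% (1.61 to 3.12) of the 1517 regions within 100 bp of a start and 0.476% (0.389 to 0.583) of the 19732 regions over 50 kb away, though the first had a median strength percentile of 45.8 and the second of 65.9. Among regions above the 90th percentile, 61 of 275 at gene starts were called in both (22.2%, 17.7 to 27.5), against 166 of 6357 elsewhere (2.61%, 2.25 to 3.03). At or below the 50th percentile both lists called 0 of 3577 regions at gene starts and 4 of 14749 elsewhere, and replicate 2 called 1 and 11, while replicate 1 called 2.96% and 0.468%. The intervals cover counting over regions and not the spread between libraries. The regions at starts were also wider, with medians of 1518 and 1175 bp in this comparison, and the part of width was not tested. The summits around the start were spread evenly in the asynchronous lists, with 49.7% and 50.6% of those within 1 kb upstream, and the mitotic lists had 49.3% and 61.4%.

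**Figure D3:**
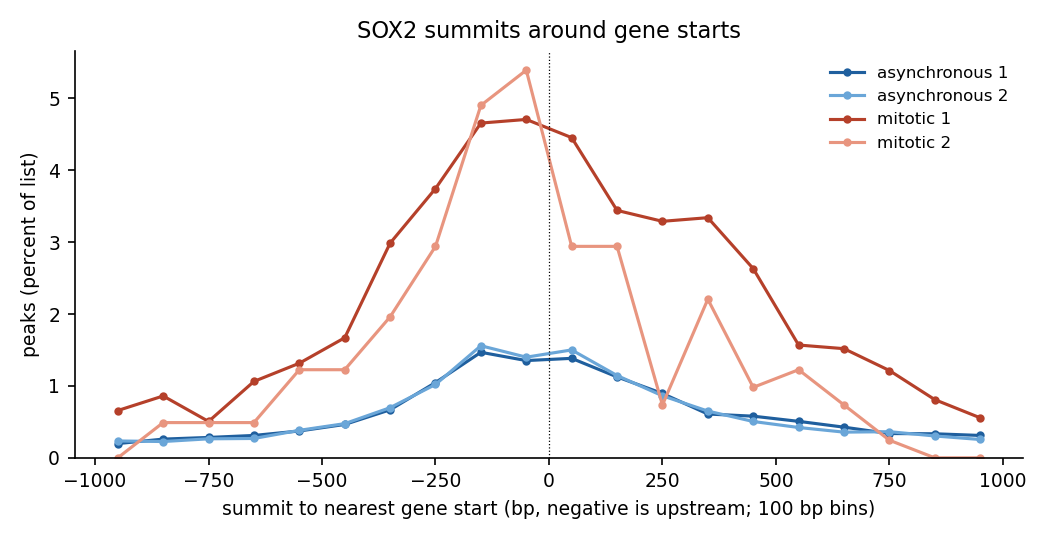
Share of each SOX2 list with a summit in each 100 bp bin around the nearest gene start (negative is upstream), 1 line per library. Both mitotic lines lie above both asynchronous ones in every bin from -900 to 200 bp; replicate 2 falls below them at 200 to 300 bp (0.735%) and beyond 700 bp, and rests on 127 peaks within 1 kb.

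The X chromosome had the lowest share of its regions called in mitosis, leaving out Y with 5 regions, and also a lower share of the asynchronous peaks than any autosome (lowest 3.03%, chromosome 19). It held 1666 and 1137 asynchronous peaks (1.85% and 1.79%), and 7 and 1 mitotic peaks (0.354% and 0.245%), a difference with an exact permutation p of 0.333. Of its 997 regions, replicate 1 called 0.702% and both lists called 1, while replicate 1 called 3.42% of the autosomal regions, ranging from 2.60% on chromosome 1 to 4.50% on chromosome 8. The X regions had a median strength percentile of 73.6 against 61.0 on the autosomes, but were narrower, with median widths of 599 and 659 bp. Above the 90th percentile the widths were 972 and 1195 bp, and the part of width was not tested. Above the 90th percentile replicate 1 called 5 of 211 X regions (2.37%) and 9.12% of 6655 autosomal ones. CTCF peaks on X made up 2.18% and 2.05% of the asynchronous and 1.26% and 0.815% of the mitotic CTCF lists. Among the strongest 408 peaks of each SOX2 list X held 3 and 2 asynchronous and 0 and 1 mitotic peaks, which is too few to compare.

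Chromosome 11 held more of the regions called in both lists than other autosomes, with 1.29% of its regions called in both, and chromosome 14 had the fewest at 0.297%. Chromosome 11 carried 9.01% and 12.5% of the peaks of mitotic replicates 1 and 2, beside 7.16% and 7.61% of the asynchronous peaks. The sites at Tcf7, Asic2, Pipox, Etv4 and Llgl1 lie on it.

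**Figure D4:**
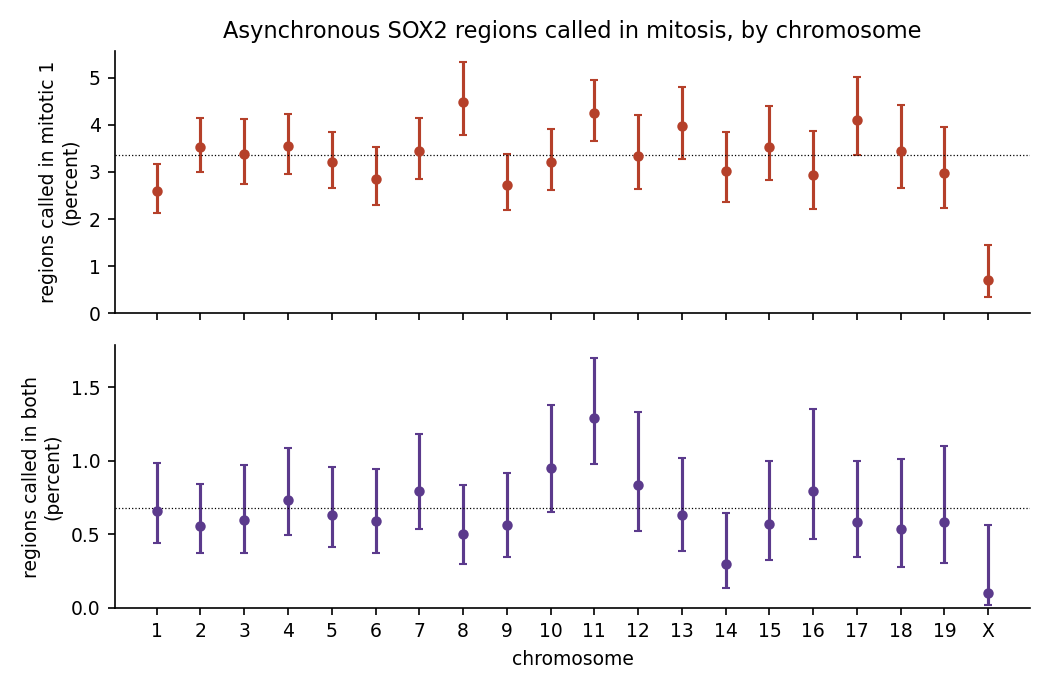
Percent of the reproducible asynchronous SOX2 regions on each chromosome that were called in mitotic replicate 1 (top) and in both mitotic lists (bottom), with 95% Wilson intervals over regions and the share over all regions dotted; the Y chromosome has too few regions to show. The X value (0.702% and 1 region) is the lowest in both panels.

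Mitotic peaks overlapped called CTCF regions and lay near tRNA genes more often than asynchronous ones did. The CTCF difference depends on the length of the lists, and the tRNA difference was not examined at equal length. CTCF regions called in both asynchronous CTCF libraries overlapped 19.8% and 18.7% of asynchronous SOX2 peaks and 40.9% and 43.9% of mitotic ones. In the strongest 408 peaks of each list the shares were 51.0% and 50.7% against 49.5% and 43.9%, so the difference turned by 4.17 percentage points in favour of asynchronous cells. Peaks within 1 kb of a tRNA gene made up 0.280% and 0.367% of the asynchronous and 5.72% and 5.39% of the mitotic lists, and in the CTCF lists 0.269% and 0.275% against 0.844% and 0.808%.

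Most genes with SOX2 regions had none called in mitosis. Of 14282 protein-coding genes with a region within 50 kb to which they were nearest, 329 had a region called in both mitotic lists (2.30%) and 1658 in at least 1 (11.6%). Replicate 1 called a region of 11.4% of these genes and replicate 2 of 2.53%. The genes with the most regions were long or clustered: Etl4 had 42 regions and Msi2, encoding an RNA-binding protein, had 37, Auts2 had 36 and Magi1 had 34, and none of these had a region called in both lists. Overlapping genes of the protocadherin clusters, and the gene models Gm37013, Gm38666 and Gm38667 with 63 to 65 regions each, share regions and are not separate cases. Genes with several regions called in both were few. Bahcc1 had 3 of 14 called in both, and Abt1, Ebf1, a B cell factor gene, Ptma, encoding prothymosin alpha, and Shf had 2 each. A Shf region called in both (chr2:122377055-122379050) lay 7.91 kb from the gene, with an asynchronous summit 64 bp from a tRNA gene.

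Among 30 pluripotency regulators, 4 had a region called in both mitotic lists, 11 in 1 list and 15 in neither, beside the 2.30% of genes over all and 11.6% for any call. These genes had a median of 7 regions each against 2 over all genes. Of their 256 regions 1.56% were called in both, beside 0.675% over all regions, on 4 regions, and 7.42% in at least 1 list, beside 3.45%. The 4 had strength percentiles of 97.4 to 99.8 and widths of 2771 to 4054 bp. Over all regions, 3.38% of those above the 90th percentile and 10.1% of those over 2500 bp wide were called in both. The part of strength and width was not tested. The Pou5f1 region (chr17:35503555-35506385) had 274 and 192 asynchronous reads and 63 and 25 mitotic reads. The Lin28a region had 246 and 166 against 49 and 35, Phc1, a Polycomb gene, had 295 and 193 against 63 and 32, and Rif1, encoding a regulator of replication timing, had 343 and 236 against 76 and 40. The regions of Sox2, Nanog, Esrrb, Sall4, Tbx3 and Klf4 were called in replicate 1 at most, and those of Klf5, Zfp42, Dppa3, Prdm14, Fgf4 and Tfcp2l1 in neither list.

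The signalling list, which holds genes of the FGF, LIF, BMP, NODAL and WNT pathways, had 5 of 30 genes with a region called in both, 10 in replicate 1 alone and 15 in neither, beside 2.30% of all genes with a region called in both and 11.6% in at least 1. Of its 203 regions 2.46% were called in both, on 5 regions, beside 0.675% over all regions, and 9.36% in at least 1 list, beside 3.45%. The part of strength and width was not tested here either. The 5 genes were Spry4 and Dusp6, feedback inhibitors of FGF signalling, Etv4, its target, Lifr, the LIF receptor gene, and Socs3, a feedback inhibitor of LIF signalling. Dusp6 had 121 and 73 asynchronous reads and 43 and 37 mitotic reads, and Lifr had 315 and 193 against 24 and 18. Each count belongs to the summit of its own library, and at these genes the summits lay at different places. The Lifr mitotic summits were 1221 and 1023 bp from the asynchronous summits of the same number. The Dusp6 summit of asynchronous replicate 1 was 1370 bp from that of replicate 2 and 1376 and 1443 bp from the mitotic ones. Of the 20 SOX family genes 18 had a region, and Sox5, Sox9 and Sox13 had 1 called in both. Sox13 had 387 and 311 asynchronous reads and 30 and 26 mitotic reads, and Sox9 had 190 and 117 against 48 and 37. The lists of Polycomb and trithorax components (2 of 20, Cbx2 and Phc1), chromatin remodellers and coactivators (2 of 15, Ep300 and Kat7) and DNA methylation enzymes (1 of 10, Dnmt3a) held the rest, with 1.89%, 3.57% and 2.38% of their regions called in both, and the SOX family had 3.16%, each on 1 to 3 regions. None of the 20 neural, 20 mesoderm and endoderm, 15 trophoblast, 20 mitotic kinase and checkpoint or 20 ribosomal protein genes had a region called in both. These lists have 29 to 103 regions each, of which at 0.675% fewer than 1 would be called, so the 0 does not set them apart. A region called in replicate 1 alone was found for 9 neural genes, such as Sox1 and Pou3f2. The same held for 3 mesoderm and endoderm, 1 trophoblast, 2 mitotic kinase and checkpoint and 2 ribosomal protein genes. In that order, 8.74%, 4.92%, 2.60%, 4.76% and 6.90% of the regions of these 5 lists were called in at least 1 mitotic list. Over all regions it was 3.45%. The lists differ in how many regions their genes have, so counts of genes are not comparable between them.

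The mitotic lists differed in length and in content, and overlapped most among their strongest peaks. Replicate 1 held 1976 peaks, of which 359 (18.2%) overlapped a peak of replicate 2, and replicate 2 held 408, of which 360 (88.2%) overlapped one of replicate 1. Of the 50 strongest peaks of replicate 1, 90% were shared, and the share fell to 33.7% at ranks 201 to 408 and to 2.13% at ranks 1601 to 1976. When replicate 1 was cut to its strongest 408 peaks, 52.7% of these were shared, and 44.9% lay at gene starts against 31.9% in replicate 2. Shared peaks of replicate 1 had a median of 39 reads at the summit and unshared ones 27. The weaker peaks of replicate 1 were still asynchronous sites, with 98.4% of the unshared peaks overlapping an asynchronous peak, and their share at gene starts was 49.2% against 34.8% for the shared ones.

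**Figure D5:**
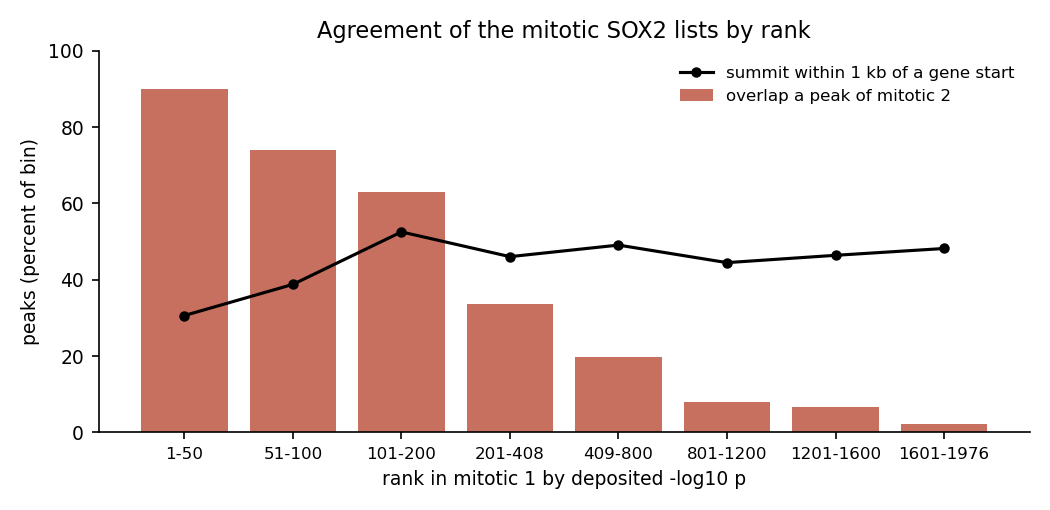
Peaks of mitotic SOX2 replicate 1 in order of deposited −log10 p (ranks on the x axis): bars give the percent that overlap a peak of mitotic replicate 2 and the line the percent with a summit within 1 kb of a gene start. The overlap falls from 90% to 2.13%, while the gene start share stays between 30.6% and 52.5%.

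The strongest unshared peaks fell into ordinary sites and sites of high background. In replicate 1 the ranks 18 and 41 were gene starts, at Spin1 (83 reads at the summit over a background of 8.19) and Adnp, a neuroprotective homeobox gene (61 over 6.37). Ctxn1, Mesd, Clcn4 and Map3k9 were others at gene starts with 51 to 58 reads. Sites in Zc3h7a, Cdk8 and Cmss1 with Filip1l, and a site 171 kb from Samd9l, had 129 to 234 reads over backgrounds of 34.6 to 88.3. In replicate 2 the strongest of the 48 unshared peaks lay in a block on chromosome 2, 1033 kb from Lrrc4c, with 282 reads over a background of 146.4, where 5 peaks were called in replicate 2 and 0 in replicate 1. Both asynchronous lists had 4 peaks there. Ncoa1, encoding a nuclear receptor coactivator, and a site near Loxl1 had 29 reads over 3.43 and 2.92. Peaks with a background over 5 times the lowest of their list made up 1.01% and 5.15% of the mitotic lists and 0.0853% and 0.0866% of the asynchronous ones. Without them the overlap was 17.7% of replicate 1 and 89.7% of replicate 2.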

How the data were processed

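Peak lists of 8 libraries (SOX2 and CTCF, 2 asynchronous and 2 mitotic each) were used, and the other 78 libraries of the series, out of 86, were not analysed here. MACS2 2.1.1.20160309, BWA 0.7.17, CASAVA 1.4, SAMtools and the build mm10 are named, per the submitters' processing notes, and the role, options and control of each step are unstated in those notes. Each library has a narrowPeak list of its own, deposited without pooling. The deposited fold is a ratio of coverage at the summit to a local background, the deposited −log10 p and −log10 q belong to the same summit, and the deposited score restates the q. They are the authors' values and rank or filter peaks within their own list only. Total reads are not in the lists, and no count table was used.

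Reads at the summit and the local background were solved from fold and −log10 p under a Poisson model, within 0.002 of −log10 p. The lowest background over the shortest peak gave the depth. Peaks were compared by at least 1 bp of overlap. Gene starts came from RefSeq promoter windows (GRCm38.p6; 17492 of 21887 protein-coding genes, none on chromosome 18), gene positions from the RefSeq gene table, and genes were assigned as the nearest within 50 kb. Shares have 95% Wilson intervals, which cover counting error only. Libraries were compared by two-sided exact permutation tests.

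Named regions are the 15 with the highest mean −log10 p percentile among those called in both mitotic lists, the 10 strongest unshared peaks of each mitotic list, the 10 widest regions, the 10 genes with most regions, genes with several called in both, the 5 strongest regions with far summits, and members of 11 gene lists with a region called in both. Unshared and widest ones not named in the text are in their counts. The members, lists and rules were chosen with earlier results of these data known. The code was tested on simulated data. Analyses ran in Python 3.11.15 with numpy 2.4.6, pandas 2.3.3 and scipy 1.17.1.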

Additional observations from a re-analysis of the deposited data

Results flagged for a closer look

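The share of peaks within 1 kb of a gene start moved in opposite directions for SOX2 and CTCF. Both mitotic SOX2 lists were above both asynchronous ones, by 25.9 percentage points on average, while both mitotic CTCF lists were below both asynchronous CTCF lists, by -0.940 points. The gap between these differences was 26.8 points, and it was not tested. The opposite direction did not hold within 100 bp of a start. There the share was higher in mitosis for CTCF too, at 2.79% against 2.04%, beside 9.06% against 2.93% for SOX2. The median distance to a start, averaged over libraries, did move in opposite directions. It was 6.78 kb in mitosis against 29.0 kb for SOX2, and 25.7 kb against 24.7 kb for CTCF. The CTCF pair of replicate 1 differed little at 1 kb, with 9.32% and 9.22%. With 2 libraries per group no library could be checked for standing apart from the rest of its group.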

How the results depend on the processing

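The direction of the peak number, width, gene start and X chromosome differences held under every alternative run for them. The overlap with CTCF regions did too, except that it was -4.17 points with lists at equal length, against 23.1. It was 9.27 points with summits within 100 bp of each other and 8.58 points with a fold of at least 5. The width difference was -1160.5 bp and the X difference -0.490 points at equal length, against -130.75 and -1.52. The median summit offset was 59.1 bp, 39.5 bp with a fold of at least 5 and 35.3 bp with summits within 100 bp of each other, a rule that itself bounds the value. The shared part of mitotic replicate 1 was 18.2%, 20.9% with a −log10 q of at least 5, 37.2% with a fold of at least 5, 14.1% with summits within 100 bp and 52.7% with lists at equal length. Genes with a region called in both lists numbered 329, and 127 with a fold of at least 5. Leaving out each library in turn gave a peak number ratio of 0.00531 to 0.0257 (0.0155 with all), the lowest without mitotic replicate 1, and a mean share of regions called of 0.755% to 3.37% (2.06% with all), these being replicates 2 and 1 alone. The gene start difference was 18.6 to 33.2 points, the width difference -165 to -96.5 bp, the X difference -1.57 to -1.46 points, the CTCF overlap difference 21.6 to 24.6 points and the summit offset 46.3 to 72 bp. With the replicate block, comparing libraries of the same number, the peak number ratio was 0.0142, the gene start difference 25.9 points and the offset 59.8 bp, and no direction changed. The labels do not say that equal numbers mark a shared culture. Left out after the data were seen were peaks of high background, peaks near tRNA genes, and chromosome X, and either boundary of a gene was used in place of its start (26.4 points); none of these turned a direction.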

Other observations

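In the mitotic lists 18 of the 349 regions called in both (5.16%) had a tRNA gene within 1 kb, against 0.194% of the regions called in neither.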
